A study of Mus musculus with 3 samples.

Results

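The genes described here are 33 genes that B cells use, taken from gene tables of CD4+ T cells: 10 genes of the MHC class II pathway and 23 genes of B cell identity, among 23283 genes or gene groups in each table. They were found by gene symbol, and each symbol had 1 row. All 33 reached at least 1 FPKM (sequenced fragments scaled to transcript length and library depth) in at least 1 library of each comparison, so none dropped out. The T cells were sorted by flow cytometry for CD4 and for binding of the 2W:I-A(b) reagent from the popliteal and inguinal nodes that drain the footpad, in C57BL/6 mice, 7 days after footpad immunization with the 2W1S peptide, LPS and IFA. The 3 groups were wild type (WT), MyD88 T-KO, labelled Myd88 -/- with the deletion restricted to T cells, and IL6ra T-KO, labelled as lacking the IL-6 receptor a chain in T cells. Each group was 1 library, pooled over 4 experiments and 15 to 30 mice, so no difference below has a replicate check and no test was possible. The promoter that drove the deletions, the age of the mice and the sorting gates beyond CD4 and that reagent are not stated in the sources at hand.

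MHC class II molecules are pairs of alpha and beta chains that show peptides to CD4+ T cells. In mice they are made chiefly by B cells, dendritic cells and activated macrophages and hardly at all by T cells. The invariant chain (Cd74) escorts the new chains, H2-DM loads the peptide, H2-O restrains H2-DM, and the coactivator CIITA switches the genes on. B cells are recognized by the signalling chains of their antigen receptor, Cd79a and Cd79b, and by the transcription factors Ebf1 and Pax5. I-A(b), which held the 2W peptide in the sorting reagent, is itself the product of H2-Aa and H2-Ab1.

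Steps of 1 fragment in the lowest FPKM values gave a rough depth of about 20700000 to 23000000 fragments per library. Only values within a window set beforehand were used, which bounded the answer, so this depth is an assumption as much as a measurement. On that estimate a transcript of 1 kb gained about 0.0436 to 0.0483 FPKM per fragment, and 3 fragments give 0.131 to 0.145 FPKM. The lowest of the 33 genes in WT, Ebf1 at 1.41 FPKM, lay above that. Myd88 was at 19.5 FPKM in MyD88 T-KO and 49.8 FPKM in WT. Il6ra was at 65.1 FPKM in its own knockout library against 57.1 FPKM in WT, so its transcript level goes against the label, and that library is called the library labelled IL6ra T-KO throughout. Which exons were deleted is not stated, so a whole-gene FPKM may not check the deletion. Myd88 was also lower there, at 34.2 against 51.0 FPKM, or a log2 ratio of -0.56. T cell genes were high in all libraries. Cd3e, a chain of the T cell receptor complex, was at 749 against 711 FPKM in the first comparison and at 653 against 728 FPKM in the second. WT has a value in each table, and the 2 values stand in a nearly constant ratio, with a median of 1.02 over 10200 genes. Each knockout was set against WT of its own table. Both comparisons share that 1 WT library.

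In MyD88 T-KO, class II and B cell identity genes were higher than in WT as a body. The 33 genes were chosen with earlier results of these data known. Their counts and medians, here and in the second comparison, describe the chosen genes and are not an independent check. With 1 FPKM added to both values, the log2 ratio of knockout to WT is used, a scale that understates differences of genes with low FPKM. It lay above 0 for all 33 genes, where 54.2% of the 10345 genes with at least 1 FPKM did. It was at least 0.5 for 26 of the 33, against 1.58% of all genes, and at least 1 for 1 of them, H2-DMb2, against 0.184% of all genes. That count of 1 was 7 with the log2 fold change of the authors' deposited table or a pseudocount of 0.1 FPKM, and 0 with WT of the other table or with ratios centred on the median of all genes. The median was 0.84 for the class II genes and 0.71 for the identity genes, and 0.01 for all genes. The authors' deposited table marked 6 of the 10 class II genes and 12 of the 23 identity genes as significantly higher, against 0.394% of all genes they tested. That call compares 1 library with 1 library. In a sorted bulk sample, more cells of a type and more RNA per cell cannot be told apart.

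Against the same WT library, these genes had a smaller median ratio in the library labelled IL6ra T-KO, 0.47 over the 33 against 0.74 in MyD88 T-KO. The ratio lay above 0 for 32 of the 33, the exception being Hvcn1, where 43.1% of 10502 genes did. It was at least 0.5 for 14, against 5.79% of all genes, and at least 1 for Igj alone, against 1.1% of all genes. The median was 0.56 for class II genes and 0.41 for identity genes, and -0.04 for all genes. The authors' deposited table marked 1 of the 33, Igj, as significant, against 0.502% of genes tested that it marked as higher. The errors of that table are wider. An implied SE was taken as the log2 fold change in the authors' deposited table divided by its test statistic. It had a median of 0.39 over the 33 genes, against 0.22 in the MyD88 T-KO table. It comes from the authors' model and not from replicates, and it belongs to the ratio without the added 1 FPKM. The difference between the 2 knockouts was not tested.

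**Figure D1:**
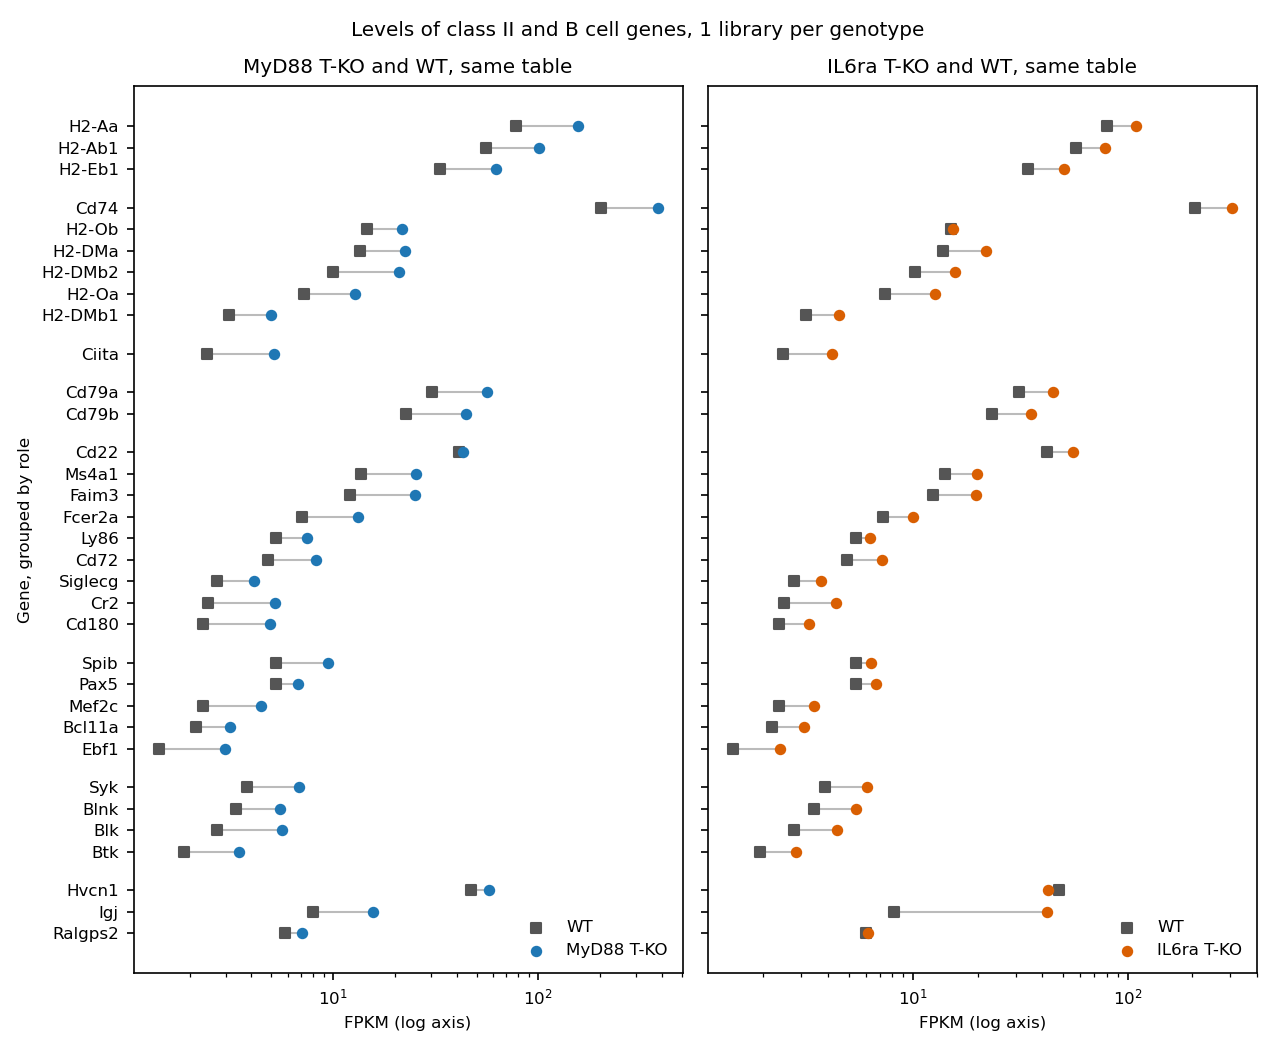
FPKM of each of the 33 genes on a log axis, with the knockout library as a circle and the WT library of the same table as a square, joined by a line. In MyD88 T-KO all 33 circles lie to the right of their squares, and in the library labelled IL6ra T-KO 32 do, with Igj far to the right and Hvcn1 to the left.

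The 2 chains of I-A were the most abundant genes of the set after the invariant chain, in every library. H2-Aa, the alpha chain of I-A (chromosome 17, 34282751 to 34287771, mm10), stood at 156 FPKM in MyD88 T-KO and 78.1 FPKM in WT, or a log2 ratio of 0.99 (implied SE 0.16). In the library labelled IL6ra T-KO it stood at 110 FPKM against 80.0 FPKM, or a log2 ratio of 0.45 (0.28). H2-Ab1, the beta chain of I-A (chromosome 17, 34263227 to 34269418), was at 101 against 55.9 FPKM in the first comparison, a ratio of 0.84 (0.17). It was at 78.5 against 57.2 FPKM in the second, a ratio of 0.45 (0.29). H2-Eb1 encodes the beta chain of I-E (chromosome 17, 34305867 to 34316674), a protein that C57BL/6 mice do not display because their alpha chain gene is defective. Its transcript was at 62.2 against 33.4 FPKM in MyD88 T-KO, a ratio of 0.88 (0.17), and at 50.3 against 34.2 FPKM for the library labelled IL6ra T-KO, a ratio of 0.54 (0.29). All 3 chains were above WT in both comparisons, with the larger ratios in MyD88 T-KO.

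Class II genes share a promoter layout, an X box bound by RFX proteins followed by a Y box bound by NF-Y, on which CIITA assembles. Promoter windows from RefSeq (GRCm38.p6, 250 bases before to 50 after a start site) were on hand for 7 of the 10 class II genes and 19 of the 23 identity genes; H2-Ab1, Cd74, Ciita, Blk, Cd79b, Hvcn1 and Ms4a1 were not matched. The Y box letters TGATTGG, searched on both strands, were in 6 of the 7 class II genes, in 1 of the 19 identity genes, Fcer2a, and in 9% of all 27025 genes with a window. This longer form of the core ATTGG was chosen after the windows were seen, and the core itself was in all 7 class II genes, in 6 of the 19 identity genes and in 41.1% of all genes. For H2-DMa the core was only in a window at chr17:34125268-34125567. That window lies upstream of the locus to which its FPKM belongs, 34135671 to 34138535. The X box consensus was in H2-Eb1 and H2-DMb1, in none of the identity genes and in 0.359% of all genes. The stretches shown are those that carry these Y box letters, so all 6 hold them by selection. H2-DMa had a window without this longer form. Promoter letters were not used to choose the genes. Capitals mark the Y box letters and, where they match, the X box letters, and each stretch of 60 bases is read along the strand of its gene.
H2-Aa: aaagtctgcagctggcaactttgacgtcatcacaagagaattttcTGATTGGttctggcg
H2-Eb1: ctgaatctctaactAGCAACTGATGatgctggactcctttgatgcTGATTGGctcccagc
H2-DMb1: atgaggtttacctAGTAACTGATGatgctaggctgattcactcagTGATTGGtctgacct
H2-DMb2: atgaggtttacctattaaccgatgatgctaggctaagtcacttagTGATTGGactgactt
H2-Oa: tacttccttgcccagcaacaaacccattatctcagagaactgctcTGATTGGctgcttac
H2-Ob: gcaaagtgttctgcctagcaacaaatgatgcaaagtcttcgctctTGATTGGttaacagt
They lie at chr17:34287859-34287918 on the minus strand for H2-Aa, and on the plus strand at chr17:34305761-34305820 for H2-Eb1, chr17:34153083-34153142 for H2-DMb1, chr17:34145112-34145171 for H2-DMb2, chr17:34092289-34092348 for H2-Oa and chr17:34238801-34238860 for H2-Ob. The Y box letters begin 45 to 92 bases before the start site. The octamer ATGCAAAT, bound by Oct proteins, was in 1 of the 19 identity genes, Blnk, and in 1.97% of all genes. The EBF1 consensus was in Cd22 alone of these genes and in 1.06% of all genes. A match is a description of these letters and not a bound site.

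Among the genes of peptide loading, the invariant chain Cd74 was the highest of all 33 genes in every library. It stood at 382 FPKM in MyD88 T-KO and 201 FPKM in WT, or a log2 ratio of 0.92 (implied SE 0.18). It stood at 307 against 206 FPKM for the library labelled IL6ra T-KO, a ratio of 0.57 (0.30). H2-DMb2, a beta chain of the peptide loader H2-DM, was at 21.03 against 9.96 FPKM in MyD88 T-KO, a ratio of 1.01 (0.26), and at 15.7 against 10.2 FPKM in the other, a ratio of 0.57 (0.46). H2-DMa, its alpha chain, had ratios of 0.69 and 0.62 in the 2 comparisons. H2-DMb1 had ratios of 0.55 and 0.41. H2-DMb1 and H2-DMb2 are close copies that can trade reads, so the values of each are uncertain.

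The 2 chains of H2-O, the brake on H2-DM, had different ratios in the second comparison. H2-Oa was at 12.8 against 7.21 FPKM in MyD88 T-KO and at 12.6 against 7.39 FPKM for the library labelled IL6ra T-KO, ratios of 0.75 and 0.70 (implied SE 0.28 and 0.46). H2-Ob was at 21.7 against 14.6 FPKM in MyD88 T-KO, a ratio of 0.54 (0.18), the lowest of the class II genes there, with H2-DMb1 at 0.55. In the other library it was at 15.3 against 14.9 FPKM, or a log2 ratio of 0.03 (0.32), level with WT. The difference between the 2 chains was not tested.

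Ciita, the class II coactivator (chromosome 16, 10480072 to 10527564), was low, and it too was above WT in both comparisons. It was at 5.12 FPKM in MyD88 T-KO and 2.42 FPKM in WT, or a log2 ratio of 0.84 (implied SE 0.23). It was at 4.18 against 2.48 FPKM for the library labelled IL6ra T-KO, a ratio of 0.57 (0.39). Without the added 1 FPKM its fold was 2.11 in MyD88 T-KO and 1.68 in the other.

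Further genes of the class II pathway were mostly near WT. The list held 11 further genes, among them the RFX and NF-Y factors that bind the X and Y boxes. In MyD88 T-KO its median ratio was 0.04, and 1 of the 11 was at least 0.5, against 1.58% of all genes. The authors' deposited table marked none, against 0.394% of all genes tested that it marked as higher. That 1 gene was H2-Eb2, a class II beta chain, named after its values were seen, with a ratio of 0.56. In the library labelled IL6ra T-KO the median was 0.10 and none was at least 0.5, against 5.79% of all genes. Lgmn, a lysosomal protease, was at 30.8 against 46.6 FPKM there, or a log2 ratio of -0.58 (implied SE 0.29). Ctss, the protease that trims the invariant chain, was at 119 against 115 FPKM and at 128 against 118 FPKM. Nfyb, an NF-Y subunit, had ratios of 0.04 and 0.07. The 12 genes of the class I pathway, which nearly all cells use, had a median of -0.06 in MyD88 T-KO and 0.07 in the library labelled IL6ra T-KO. None was at 0.5 or above in either, against 1.58% and 5.79% of all genes. At such low shares a count of none in a short list says little. B2m, the class I light chain, was at 1815 against 2073 FPKM and at 2189 against 2124 FPKM.

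**Figure D2:**
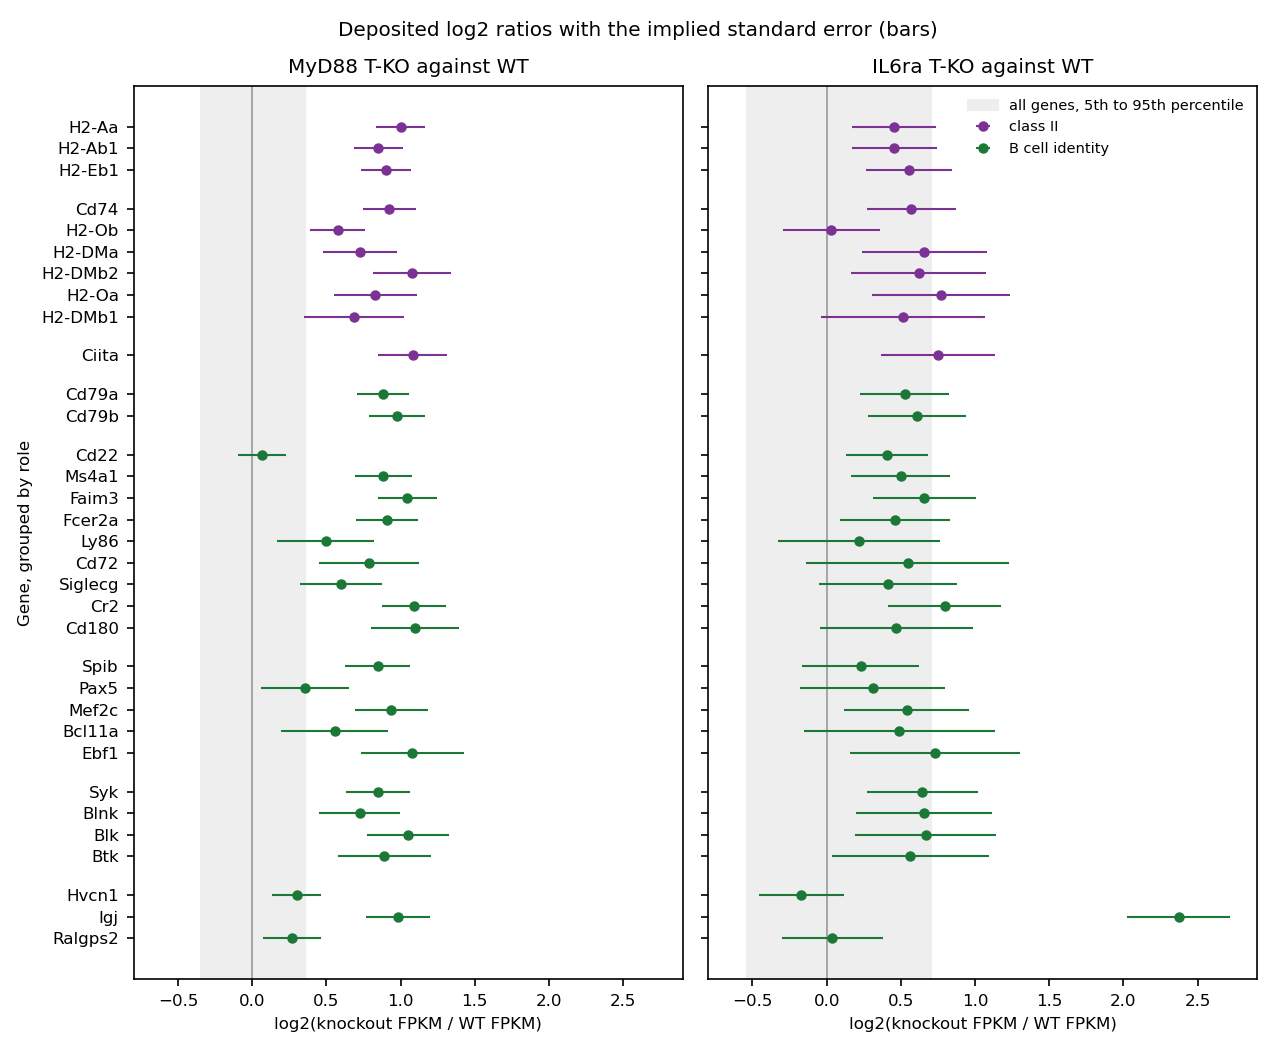
The deposited log2 ratio of knockout over WT, without a pseudocount, for each gene, with the implied SE as a bar and the 5th to 95th percentile of all genes as a grey band, from -0.35 to 0.36 in MyD88 T-KO and from -0.53 to 0.70 in the library labelled IL6ra T-KO. In MyD88 T-KO all class II points lie right of the band, and Cd22, Ralgps2, Hvcn1 and, at its edge, Pax5 lie within it. In the other library most points lie within the band and Igj lies far outside it.

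Both chains of the B cell receptor complex were higher in both knockout libraries. Cd79a (chromosome 7, 24897511 to 24902197) was at 56.1 FPKM in MyD88 T-KO and 30.5 FPKM in WT, or a log2 ratio of 0.86 (implied SE 0.17), and at 44.9 against 31.2 FPKM for the library labelled IL6ra T-KO, a ratio of 0.51 (0.30). Cd79b (chromosome 11, 106311341 to 106314529) was at 44.6 against 22.7 FPKM and at 35.5 against 23.3 FPKM, ratios of 0.95 (0.19) and 0.59 (0.33). These values sit close to those of the class II chains.

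Of the 9 surface receptor genes, all were above WT in both comparisons, with ratios from 0.07 to 0.99 in MyD88 T-KO and from 0.19 to 0.62 in the library labelled IL6ra T-KO. Faim3, the receptor for the Fc part of IgM, had the highest ratio of them in both with 1 FPKM added, while without it Cr2 had the higher fold in both, 2.13 against 2.06 and 1.74 against 1.58. It was at 25.03 against 12.1 FPKM in MyD88 T-KO, a ratio of 0.99 (implied SE 0.20), and at 19.6 against 12.4 FPKM in the other, a ratio of 0.62 (0.35). Ms4a1, which encodes the B cell antigen CD20, was at 25.2 against 13.7 FPKM and at 19.8 against 14.0 FPKM, ratios of 0.84 (0.19) and 0.47 (0.33). Cr2, the complement receptor of mature B cells, had ratios of 0.85 and 0.61, and Fcer2a, the low affinity IgE receptor, 0.82 and 0.41. Cd180, a Toll-like receptor relative, had ratios of 0.84 and 0.34, while Ly86, its secreted partner, had 0.43 and 0.19. The inhibitory receptors Cd72 and Siglecg had ratios of 0.68 and 0.46 in MyD88 T-KO, and 0.47 and 0.32 in the library labelled IL6ra T-KO.

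Cd22, another inhibitory receptor of B cells (chromosome 7, 30865404 to 30880342), stood apart in MyD88 T-KO. It was at 43.0 FPKM there and 41.0 FPKM in WT, or a log2 ratio of 0.07 (implied SE 0.16), and at 55.7 against 42.0 FPKM for the library labelled IL6ra T-KO, a ratio of 0.40 (0.27). Besides Igj it was the 1 gene of the 33 whose ratio was higher in the second comparison than in the first. In WT it was more abundant than Cd79a, the receptor chain. Part of its exons overlap Gm29439, an antisense gene in the GENCODE M21 annotation, and whether the libraries kept strand is not stated. In all, 10 of the 33 genes share exon bases with another annotated gene, 5 of them with a protein-coding one: H2-DMa with Brd2, Ciita with Dexi, Cd72 with Tesk1, Cd180 with Mast4 and Hvcn1 with Tctn1.

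The 5 B cell transcription factors were low, between 1.41 and 5.28 FPKM in WT of the first table, and all were above WT in both comparisons. Ebf1, which with Pax5 sets B cell identity, was at 2.97 against 1.41 FPKM in MyD88 T-KO, a ratio of 0.72 (implied SE 0.35), and at 2.39 against 1.44 FPKM for the library labelled IL6ra T-KO, a ratio of 0.47 (0.57). Pax5 was at 6.75 against 5.27 FPKM and at 6.70 against 5.40 FPKM, ratios of 0.31 (0.29) and 0.27 (0.49), the lowest of the 5 in MyD88 T-KO. Spib, an Ets factor of B cells and plasmacytoid dendritic cells, had ratios of 0.74 and 0.20, Mef2c, a MADS box factor, 0.71 and 0.40, and Bcl11a, a zinc finger factor, 0.40 and 0.35. With 1 FPKM added, no factor reached a ratio of 0.5 in the library labelled IL6ra T-KO, where 5.79% of all genes did. Without it, Ebf1 was at 0.73 and Mef2c at 0.54 there, and Bcl11a, Pax5 and Spib at 0.49, 0.31 and 0.23.

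The 4 genes of B cell receptor signalling were above WT by similar amounts. Blk, a Src family kinase of B cells, was at 5.63 against 2.72 FPKM in MyD88 T-KO and at 4.43 against 2.79 FPKM for the library labelled IL6ra T-KO, ratios of 0.83 (implied SE 0.27) and 0.52 (0.47). Syk, the kinase that docks on Cd79a and Cd79b, had ratios of 0.71 and 0.53, Blnk, the adaptor it phosphorylates, 0.59 and 0.53, and Btk, the kinase downstream, 0.64 and 0.40. Myeloid cells also use Syk and Btk. T cells use the related Zap70 in place of Syk, and Zap70 belongs to the T cell list given below.

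Igj, now called Jchain, encodes the chain that joins IgM and IgA into polymers and marks antibody-secreting cells. Igj (chromosome 5, 88519809 to 88527897) was at 15.7 FPKM in MyD88 T-KO and 7.96 FPKM in WT, or a log2 ratio of 0.90 (implied SE 0.22), near the receptor chains. The library labelled IL6ra T-KO held it at 42.2 against 8.16 FPKM, a 5.17-fold difference and a log2 ratio of 2.24 (0.35). The authors' deposited table gave it a q-value of 1.7e-08 there. Among plasma cell markers in that library, Sdc1 was at 1.66 against 0.711 FPKM, and Tnfrsf17 was at 0.442 FPKM and listed at 0 in WT. Named after their values were seen, 2010001M09Rik was at 21.4 against 7.71 FPKM and Fkbp11 at 1.40 against 0.140 FPKM. The authors' deposited table marked neither of them. The WT value of Fkbp11 lay near the 0.142 FPKM that, on the rough depth estimate, 3 fragments give a transcript of 1 kb there. The plasma cell markers with the highest FPKM, Xbp1, Edem1 and Irf4, which T cells also express, had ratios of -0.17, -0.23 and -0.08. The 9 measured markers had a median of 0.56 with 6 above 0, Igj included, where 43.1% of all genes were above 0. In MyD88 T-KO the median was 0.04 with 5 of 8 above 0, where 54.2% of all genes were. Sdc1 in both comparisons, and Fkbp11 in the second, reached 1 FPKM only in the knockout library, so the minimum fixed their ratios above 0. Fkbp11 was under 1 FPKM in the first comparison, so the medians are over different sets and cannot be set side by side. The summed level of the 10 markers found, Igj included, was 151 against 144 FPKM in MyD88 T-KO and 187 against 148 FPKM in the other. Igj alone made up all of the first gap and most of the second. What part antibody-secreting cells had in these values was not tested.

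Hvcn1, a voltage-gated proton channel, and Ralgps2, an exchange factor for Ral GTPases, were nearest to WT in MyD88 T-KO besides Cd22. Hvcn1 was at 57.6 against 46.8 FPKM in MyD88 T-KO, a ratio of 0.29 (implied SE 0.16), and at 42.6 against 47.9 FPKM for the library labelled IL6ra T-KO, a ratio of -0.17 (0.28) that came to 0.0056 when ratios were centred on T cell genes. Ralgps2 was at 7.06 against 5.86 FPKM and at 6.16 against 6.00 FPKM, ratios of 0.23 (0.19) and 0.03 (0.34). Hvcn1 and Cd22 had the highest FPKM of the 23 identity genes in WT. Measured from the median of the identity genes without a pseudocount, 0.88 in MyD88 T-KO, Cd22, Hvcn1 and Ralgps2 lay more than 2 implied SEs below, and no other identity gene did. Where that median was 0.53, in the library labelled IL6ra T-KO, Hvcn1 lay more than 2 implied SEs below and Igj above. None of the 10 class II genes lay that far from the class II median in either library.

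Levels set against Cd79a within each library do not depend on the scaling of the tables. Cd74 was at 6.61 times the level of Cd79a in WT, 6.81 times in MyD88 T-KO and 6.82 times in the library labelled IL6ra T-KO. H2-Eb1 was at 1.09, 1.11 and 1.12 times, and Ms4a1 at 0.449, 0.450 and 0.441 times. Over the 3 libraries the highest and lowest of these relative levels were within 1.5-fold of each other for all 10 class II genes and for 18 of the 22 identity genes besides Cd79a. The other 4 were Igj, with 0.261 in WT, 0.280 in MyD88 T-KO and 0.939 in the library labelled IL6ra T-KO, Cd22 (1.35, 0.767 and 1.24), Hvcn1 (1.53, 1.03 and 0.947) and Ralgps2 (0.192, 0.126 and 0.137). The share of all genes within that limit was not computed. The counts therefore do not show how far these genes differ from others.

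**Figure D3:**
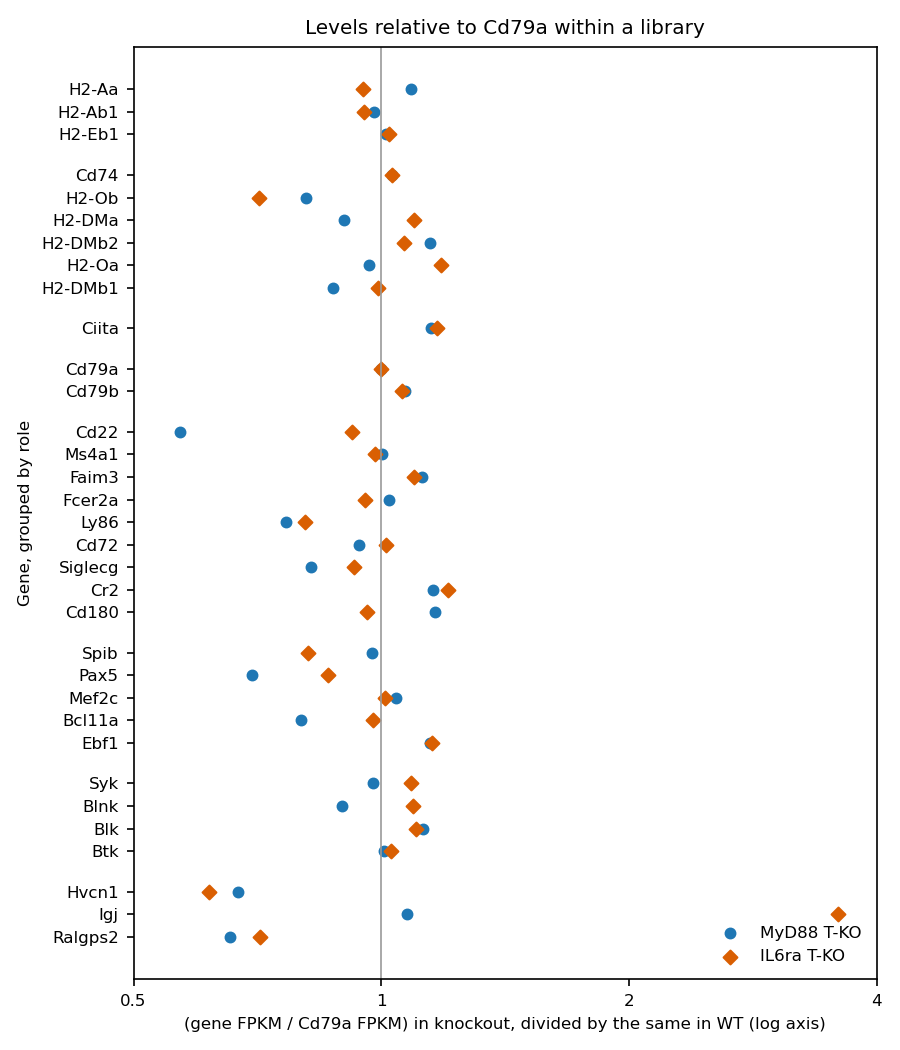
The FPKM of each gene divided by that of Cd79a in a knockout library, relative to the same quotient in WT of its table, on a log axis, with MyD88 T-KO as circles and the library labelled IL6ra T-KO as diamonds. Most points lie near 1, the Igj diamond lies far to the right, both points of Hvcn1 and Ralgps2 lie to the left, and so does the circle of Cd22.

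The class II median was above the identity median by 0.13 in MyD88 T-KO and 0.15 in the library labelled IL6ra T-KO. These gaps were not tested. Without the added 1 FPKM, which pulls the ratios of low genes towards 0, they were -0.0045 and 0.04.

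Other B cell genes, on a list of 18 that are not among the 33, mostly lay above WT too. That list was also chosen with earlier results of these data known, so it is not an independent check. In MyD88 T-KO 17 of them were above 0, against 54.2% of all genes, with a median of 0.56. There 10 were at least 0.5, against 1.58% of all genes. For the library labelled IL6ra T-KO, 15 were above 0, against 43.1% of all genes, with a median of 0.45. There 7 were at least 0.5, against 5.79% of all genes. The members of that list with the highest FPKM were mostly further from this pattern. Cd83 was an exception in the library labelled IL6ra T-KO, where its ratio was the highest of the 18. Cd37, a tetraspanin of lymphocytes, had ratios of 0.15 and -0.05. Pou2af1, an Oct coactivator, was at 99.5 against 84.1 FPKM and at 64.7 against 86.2 FPKM, ratios of 0.24 (0.16) and -0.41 (0.27). Pou2f2, an Oct factor, had ratios of -0.42 and 0.10, and Cd83, an activation marker of several cell types, 0.14 and 0.91.

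Markers of other cells that carry class II were partly higher as well. Of 23 macrophage and dendritic cell markers found, 7 reached 1 FPKM in the first comparison, with a median ratio of 0.31. Of these 6 were above 0, against 54.2% of all genes. In the second comparison 10 reached it, with a median of 0.65 and 9 above 0, against 43.1% of all genes. These medians and counts depend in part on the minimum of 1 FPKM, as set out below. The summed level of the 23 markers was 99.2 against 82.8 FPKM and 112 against 84.9 FPKM. Cst3, which many cells express, made up most of it. Lyz2, the myeloid lysozyme, was at 15.0 against 7.25 FPKM and at 12.9 against 7.43 FPKM, ratios of 0.96 and 0.72. Cd68 had ratios of -0.08 and -0.46. Several defining markers were near 0. Csf1r was at 0.607 against 0.322 FPKM and at 0.945 against 0.329 FPKM. Itgax was at 0.223 against 0.106 FPKM and at 0.282 against 0.108 FPKM. Flt3 was at 0.227 against 0.0916 FPKM and at 0.170 against 0.0938 FPKM. Clec9a and Cd209a were listed at 0 in WT, as Clec9a was in the library labelled IL6ra T-KO. C1qa, a complement gene of macrophages, was at 0.410 against 0.598 FPKM and at 1.29 against 0.612 FPKM. Of its partners, named after their values were seen, C1qb was at 0.597 against 0.288 FPKM and at 1.42 against 0.295 FPKM, and C1qc was at 0.614 against 0.240 FPKM and at 1.12 against 0.246 FPKM. Itgam, a myeloid integrin named after its values were seen, was at 1.11 against 0.574 FPKM and at 2.54 against 0.588 FPKM, and the authors' deposited table marked it as significantly higher in the second comparison. Itgam in both comparisons, and C1qa, C1qb and C1qc in the second, reached 1 FPKM only in the knockout library. The minimum thus fixed their ratios above 0 where they were counted. The CD8 T cell genes Cd8a and Cd8b1 had ratios of 0.88 and 0.82 in MyD88 T-KO and 0.25 and 0.23 in the library labelled IL6ra T-KO, with a summed level of 21.96 against 11.4 FPKM and 14.2 against 11.7 FPKM. Lyz2, Cd8a and Cd8b1 were marked by the authors as significantly higher in MyD88 T-KO, against 0.394% of all genes tested, and not in the second comparison. The 16 T cell genes had a median of 0.01 in MyD88 T-KO, with 9 above 0, against 54.2% of all genes. In the library labelled IL6ra T-KO their median was -0.17, with 4 above 0, against 43.1% of all genes. Their summed levels were 4586 against 4491 FPKM and 4166 against 4601 FPKM. What part B cells or other cells in the sorted pools had in the class II and B cell values was not tested.

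**Figure D4:**
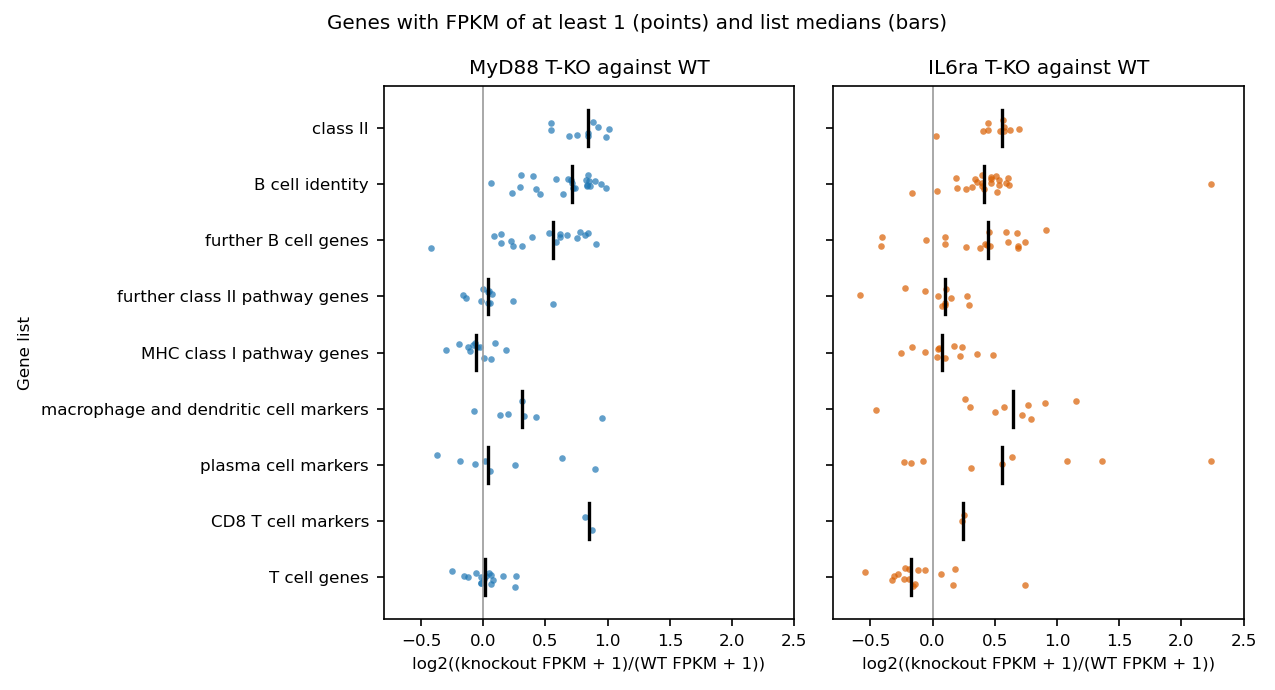
The log2 ratio with a pseudocount of 1 FPKM for every gene with at least 1 FPKM in a library of the comparison (points), by list, with the list median as a bar. In MyD88 T-KO all class II, B cell identity and CD8 T cell points and 17 of the 18 further B cell points, Pou2f2 being the other, lie to the right of 0, while class I, further class II pathway and T cell genes have medians between -0.06 and 0.04.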

How the data were processed

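RNA of sorted CD4+ T cells was sequenced as 3 pooled libraries, after selection of polyA RNA per the labels' protocols. The authors deposited 2 tables of FPKM, each with 1 knockout and WT over 4 sheets, per the file headers. The submitters' processing notes name TopHat, Cufflinks and mm10 without versions or settings. The deposited log2 fold change (WT over knockout, turned round here), p-value and q-value are the authors', per the file headers. Starts were written with 1 added.

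Ratios were computed with a pseudocount of 1 FPKM on genes with at least 1 FPKM in a library of the comparison (Python 3.11.15, pandas 2.3.3), after a check on simulated data. A gene was called at a ratio of at least 1, with 0.5 beside it. Any of the 33 genes could be named. Of each other list, the genes named are the 4 with the highest mean FPKM and the defining markers fixed with the lists, unless marked. One of those markers is not reported here. The members and lists were chosen with earlier results of these data known. Depth was estimated from genes with 1 transcript in GENCODE M21, as the median of FPKM times transcript length within a window set beforehand. Intervals were not computed, since the files hold no counts.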

Additional observations from a re-analysis of the deposited data

How the results depend on the processing

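The medians of the class II and identity genes stayed above 0 under every alternative run, between 0.68 and 0.88 and between 0.43 and 0.88 in MyD88 T-KO, and between 0.44 and 0.73 and between 0.28 and 0.58 in the library labelled IL6ra T-KO. The identity median in MyD88 T-KO was 0.43 with a pseudocount of 5 FPKM. Counts of calls depended on where the threshold fell. In MyD88 T-KO the 1 call became 7 with a pseudocount of 0.1 FPKM or with the authors' deposited log2 fold change, and 26 at a threshold of 0.5. It became 0 with a pseudocount of 5 FPKM, with WT of the other table, or with ratios centred on all genes or, an alternative added after the data were seen, on T cell genes. In the library labelled IL6ra T-KO the 1 call became 14 at a threshold of 0.5 and 0 without Igj, also added later. Centring on T cell genes, whose median there was -0.17, turned Hvcn1 there from below to above 0, the 1 sign change among 577 values of single genes. Most of these values could not change sign. Pseudocounts, FPKM minima, summed rows and the deposited fold change keep which library is higher. Only centring and WT of the other table could turn a gene, and the same limit applies to the medians. With 1 library per group no library could be left out. No paired analysis was possible because each group has 1 library. Pooling before sequencing leaves the spread between mice unmeasured.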
